A study of Mus musculus with 20 samples.

Results

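The 39 Hox genes of the mouse were examined in 20 RNA-seq libraries of the adult neocortex and hippocampus. They are all the genes whose symbol is Hox followed by the letter of a cluster and a number, and they make up 39 of the 24421 genes counted. The 4 clusters, on GRCm38, span chr6:52155590-52260880 (Hoxa, 11 genes), chr11:96194316-96368256 (Hoxb, 10 genes), chr15:102921103-103036852 (Hoxc, 9 genes) and chr2:74668310-74765142 (Hoxd, 9 genes). Genes of the same number in different clusters are paralogues, and there are 13 such paralogue groups. In cTKO neocortex library 5 and cTKO hippocampus library 4, 14 and 12 of the 18 genes of paralogue groups 1 to 6 exceeded 3 counts. Their levels reached 13.4 CPM (counts scaled to the depth of the library). In the other 18 libraries no Hox gene had more than 6 counts or 0.316 CPM.

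The libraries were made from the neocortex and hippocampus of mice of 3 months, with 5 libraries for each genotype and region. The cTKO mice carried Camk2a-Cre and the floxed alleles fAPP/fAPP, fAPLP1/fAPLP2 and fAPLP2/fAPLP2, as the study's methods spell them, and the controls were littermates that shared the floxed alleles but had no Cre, which the labels call wild type. The Camk2a promoter drives Cre in excitatory neurons of the postnatal forebrain, so other cells of the tissue keep the 3 genes, and mice of both sexes on a hybrid background of C57BL/6J and 129 were used. Nothing in the labels says which libraries of the 2 regions came from the same mouse.

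The targeted genes followed the labels in all 20 libraries. App ranged from 336 to 407 CPM in the cTKO neocortex, where controls had 1501 to 1812 CPM, and from 431 to 462 CPM in the cTKO hippocampus, where controls had 1371 to 1647 CPM. Aplp1 and Aplp2 did not overlap between genotypes in either region. Total counts ran from 12169474 to 25331954 per library. A level of 3 counts, taken as the lowest that a library can show, was therefore between 0.123 and 0.248 CPM. Slc17a7 and Camk2a, markers of excitatory neurons, were high in every library, at 1329 CPM or more and 3964 CPM or more.

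Hox genes encode homeodomain transcription factors that give cells of the embryo their position along the axis from head to tail. The genes lie in each cluster in the order in which they are used, with low paralogue numbers switched on early and towards the head and high numbers late and towards the tail. Low groups pattern the hindbrain and the pharyngeal arches, the middle groups the neck, the thorax and the organs within them, and the highest groups the lumbar, sacral and caudal levels and the ends of the limbs. The forebrain and midbrain form in front of all Hox domains, and Polycomb proteins keep the clusters silent there.

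Where the promoters of these genes could be read, they are shown for paralogue groups 1 and 8, at the anterior and posterior ends of the range described below. Each is the RefSeq window of GRCm38.p6, from 250 bases before to 50 bases after the start of transcription, 5′ to 3′ on the strand of the gene. Hoxb1 (chr11:96365508-96365807, plus strand) and Hoxb8 (chr11:96281655-96281954, plus strand) were above all other libraries in both, Hoxb1 with only 3 counts in cTKO hippocampus library 4, while their paralogues Hoxd1 (chr2:74762730-74763029, plus strand) and Hoxd8 (chr2:74704365-74704664, plus strand) were not. Capitals mark TGATNNAT, a form of the site that Hox proteins bind together with Pbx partners, on either strand.
Hoxb1: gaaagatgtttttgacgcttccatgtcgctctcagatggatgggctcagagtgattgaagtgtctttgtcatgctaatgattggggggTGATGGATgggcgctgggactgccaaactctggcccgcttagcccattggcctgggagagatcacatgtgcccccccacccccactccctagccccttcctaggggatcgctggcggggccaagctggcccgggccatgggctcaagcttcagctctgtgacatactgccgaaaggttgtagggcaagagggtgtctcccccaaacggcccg
Hoxb8: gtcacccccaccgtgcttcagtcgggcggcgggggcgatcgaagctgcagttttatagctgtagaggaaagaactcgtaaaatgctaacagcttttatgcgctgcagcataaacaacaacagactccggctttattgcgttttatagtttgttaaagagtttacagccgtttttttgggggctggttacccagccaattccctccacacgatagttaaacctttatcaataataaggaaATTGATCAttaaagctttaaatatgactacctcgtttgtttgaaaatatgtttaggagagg
Hoxd1: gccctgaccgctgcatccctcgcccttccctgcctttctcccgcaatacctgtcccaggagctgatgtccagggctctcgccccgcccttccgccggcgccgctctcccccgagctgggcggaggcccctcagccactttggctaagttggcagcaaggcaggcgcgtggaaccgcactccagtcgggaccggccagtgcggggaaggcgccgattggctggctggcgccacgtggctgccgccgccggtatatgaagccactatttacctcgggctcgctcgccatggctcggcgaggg
Hoxd8: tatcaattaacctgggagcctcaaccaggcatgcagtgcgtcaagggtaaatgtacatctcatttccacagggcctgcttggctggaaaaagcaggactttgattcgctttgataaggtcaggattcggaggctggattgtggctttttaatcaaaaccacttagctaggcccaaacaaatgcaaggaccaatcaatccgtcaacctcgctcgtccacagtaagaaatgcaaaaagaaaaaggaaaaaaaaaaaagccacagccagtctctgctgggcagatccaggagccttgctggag
The Hoxb1 window holds the letters TGATGGAT on its own strand from base 89, and the Hoxb8 window holds a match on the other strand, written ATTGATCA, from base 240. Neither Hoxd window has a match. Over the 24 windows of 22 Hox genes, 4 held the letters (16.7%), against 8.85% of the 32851 windows of all genes. The other matches lay at Hoxa2 and at Hoxd11, which had 0 counts in all 20 libraries. Hoxa3, Hoxa5, Hoxb4 and Hoxc4, above all other libraries in both, had no match, so the letters did not follow the counts. CpG pairs were frequent in the Hoxd1 window, with 29, and few in the Hoxd8 window, with 6, the median being 14 over the Hox windows and 7 over all. The matches are a description of letters, and binding at them was not measured here.

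The sum of the 39 genes was measured in each library. It was 671 counts in cTKO neocortex library 5, or 50.4 CPM (95% Poisson interval 46.7 to 54.4), and 672 counts in cTKO hippocampus library 4, or 31.8 CPM (29.4 to 34.3). The other 18 libraries held between 2 and 25 counts, with a median of 10, or between 0.0979 and 1.03 CPM. The summed level of cTKO neocortex library 5 was 49.0 times that of the highest of the 18 and 99.9 times their median, and that of cTKO hippocampus library 4 was 30.9 and 63.0 times. Both libraries were named because of these levels, so the gap carries no test. In tissue RNA, few cells with much Hox RNA and many cells with little cannot be told apart. Such intervals cover counting error only, because these reads carry no molecular identifiers and need not be separate molecules.

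Without these libraries, the groups overlapped. The 5 control neocortex libraries held 3 to 11 Hox counts (0.164 to 0.719 CPM) and the other 4 cTKO neocortex libraries 2 to 15 (0.0979 to 0.687 CPM). In the hippocampus, the 5 control libraries held 6 to 12 counts (0.301 to 0.524 CPM) and the other 4 cTKO libraries 8 to 25 (0.340 to 1.03 CPM). The mean of all 5 libraries was 0.389 ± 0.226 CPM in control neocortex and 10.5 ± 22.3 CPM in cTKO neocortex (SD, n = 5). It was 0.435 ± 0.0934 CPM in control hippocampus and 6.85 ± 13.9 CPM in cTKO hippocampus (SD, n = 5), so that the SD exceeded the mean in both cTKO groups.

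**Figure D1:**
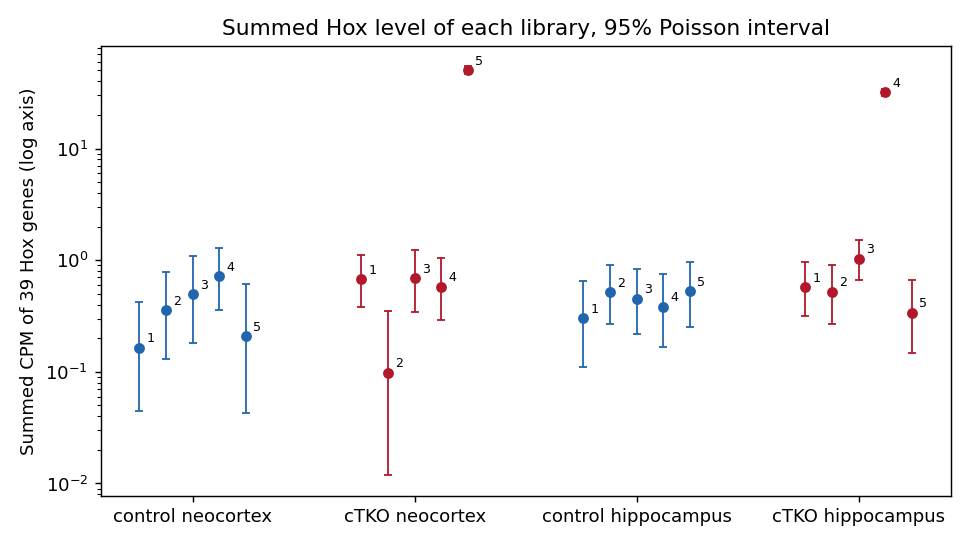
Summed CPM of the 39 Hox genes on a log axis, with 1 point per library numbered within its group and its 95% Poisson interval, controls in blue and cTKO in red. cTKO neocortex library 5 (50.4 CPM) and cTKO hippocampus library 4 (31.8 CPM) stand above the other 18 libraries, which lie between 0.0979 and 1.03 CPM.

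The members fell apart by paralogue group. Of the 18 members in groups 1 to 6, 14 exceeded 3 counts in cTKO neocortex library 5 and 12 in cTKO hippocampus library 4. Of the 21 members in groups 7 to 13, only Hoxb8 did so, in each of the 2 libraries. Groups 1 to 6 gave 649 counts in each library, which is 96.7% of the Hox counts of cTKO neocortex library 5 and 96.6% of those of cTKO hippocampus library 4. Groups 7 to 9 gave 20 counts in each, and groups 10 to 13 gave 2 and 3. Groups 9, 10, 11 and 12 had no count in either library, a result that allows up to 3 counts per gene, or 0.225 CPM in cTKO neocortex library 5 and 0.142 CPM in cTKO hippocampus library 4.

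Within this range, the counts peaked at groups 3 and 5. Group 3 held 31.6% of the Hox counts in cTKO neocortex library 5 and 33.8% in cTKO hippocampus library 4, and group 5 held 25.2% and 26.5%. Group 4 followed with 16.4% and 14.7%, group 2 with 12.7% and 10.9%, and group 6 with 7.30% and 8.93%. The posterior end was low, with 0.298% and 0.595% in group 7, and 2.68% and 2.38% in group 8.

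The clusters were also used unequally. Hoxb gave 78.8% of the Hox counts in cTKO neocortex library 5 and 77.2% in cTKO hippocampus library 4, Hoxa 16.4% and 17.4%, Hoxc 4.17% in each, and Hoxd 0.596% and 1.19%. The pooled 174 counts of the other 18 libraries were spread otherwise, with 48.9% from Hoxb, 19.0% from Hoxa, 5.17% from Hoxc and 27.0% from Hoxd. In absolute terms, Hoxd gave 4 and 8 counts in the 2 libraries and 1 to 6 counts in each of the other 18.

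**Figure D2:**
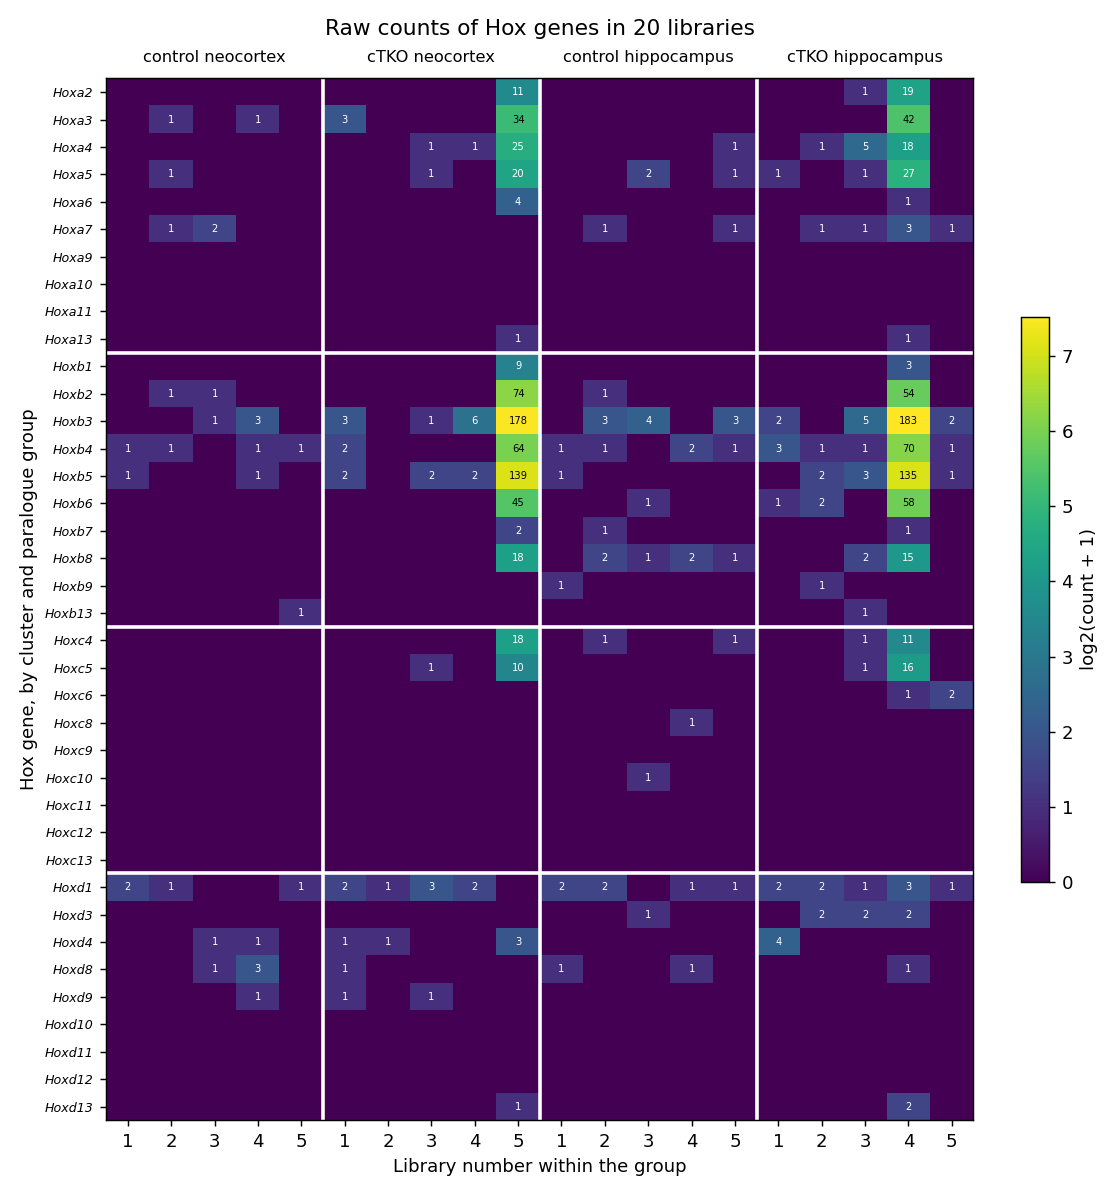
Raw counts of Hox genes (rows, ordered by cluster and paralogue group, white lines between clusters) in the 20 libraries (columns, by group), coloured by log2(count + 1), with every count above 0 printed. The columns of cTKO neocortex library 5 and cTKO hippocampus library 4 are filled up to group 6 of Hoxa and Hoxb, at groups 4 and 5 of Hoxc and at Hoxb8. Hoxa6 has only 4 counts in the former and 1 in the latter. No other library exceeds 6 counts at any gene.

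The Hoxb genes carried most of the signal. Hoxb3, which acts in the hindbrain and the pharyngeal arches, had 178 counts in cTKO neocortex library 5 (13.4 CPM, interval 11.5 to 15.5) and 183 in cTKO hippocampus library 4 (8.66 CPM, 7.45 to 10.01). The other libraries had 0, 0, 1, 3 and 0 counts in control neocortex, 3, 0, 1 and 6 in cTKO neocortex, 0, 3, 4, 0 and 3 in control hippocampus and 2, 0, 5 and 2 in cTKO hippocampus. Both libraries thus stood above all others, and the remaining cTKO and control libraries overlapped. Of the exonic bases of Hoxb3 in GENCODE vM21, 52.9% are shared with the antisense transcript Hoxb3os, and whether reads were counted by strand is not given in the sources used here. The same limit holds for Hoxb2, which shares 27.3% of its exonic bases with Hoxb3os, and for Hoxa3, which shares 27.1% with antisense and other transcripts.

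Hoxb5, expressed in the lung mesenchyme and the enteric nervous system of the embryo, had 139 counts (10.4 CPM, 8.78 to 12.3) in cTKO neocortex library 5 and 135 counts (6.39 CPM, 5.36 to 7.56) in cTKO hippocampus library 4. Elsewhere it had 1, 0, 0, 1 and 0 counts in control neocortex, 2, 0, 2 and 2 in cTKO neocortex, 1, 0, 0, 0 and 0 in control hippocampus and 0, 2, 3 and 1 in cTKO hippocampus. No other library passed 3 counts. Per kilobase of exon, Hoxb5 was at 3.75 CPM per kb (3.15 to 4.43) and Hoxb3 at 3.15 CPM per kb (2.70 to 3.65) in cTKO neocortex library 5, and at 2.29 (1.92 to 2.71) and 2.04 CPM per kb (1.75 to 2.36) in cTKO hippocampus library 4, so that the intervals of the 2 genes overlapped in each library.

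Hoxb2 and Hoxb4 were next. Hoxb2, which patterns the hindbrain segments that form facial motor neurons, had 74 counts (5.56 CPM) in cTKO neocortex library 5 and 54 (2.56 CPM) in cTKO hippocampus library 4, and at most 1 count elsewhere. Hoxb4, known also from blood stem cells, had 64 counts (4.81 CPM) and 70 counts (3.31 CPM), against at most 3 elsewhere. It was detected at 1 to 3 counts in 13 of the other 18 libraries. Hoxb6, of the neck and thorax, had 45 counts (3.38 CPM) and 58 counts (2.74 CPM), against at most 2.

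The Hoxb counts dipped at group 7. Hoxb7, between Hoxb6 and Hoxb8 on the chromosome, had 2 counts in cTKO neocortex library 5 and 1 in cTKO hippocampus library 4, while Hoxb8, the next gene towards the tail end, had 18 counts (1.35 CPM) and 15 counts (0.71 CPM). Per kilobase of exon, Hoxb6, Hoxb7 and Hoxb8 were at 1.72, 0.0974 and 0.513 CPM per kb in cTKO neocortex library 5 and at 1.40, 0.0306 and 0.269 CPM per kb in cTKO hippocampus library 4. The interval of Hoxb7 (0.0118 to 0.352 and 0.000776 to 0.171 CPM per kb) lay below that of Hoxb6 in both, but overlapped that of Hoxb8 (0.304 to 0.811 and 0.151 to 0.444 CPM per kb). Hoxb8 had at most 2 counts elsewhere and was the most posterior gene above 3 counts in either library. Hoxb9 and Hoxb13 had 0 in both. At the anterior end, Hoxb1, which sets the identity of a single hindbrain segment, had 9 counts (0.676 CPM, 0.309 to 1.28) in cTKO neocortex library 5, 3 counts (0.142 CPM, 0.0293 to 0.415) in cTKO hippocampus library 4, and 0 in each of the other 18.

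Hoxa had lower counts than Hoxb and a shorter range. Its last gene above 3 counts was Hoxa6 in cTKO neocortex library 5 and Hoxa5 in cTKO hippocampus library 4. Hoxa3, required for the thymus and parathyroid, had 34 counts (2.56 CPM) in cTKO neocortex library 5 and 42 counts (1.99 CPM) in cTKO hippocampus library 4, against at most 3 in any other library. Hoxa5, needed for the lung and the cervical and thoracic skeleton, had 20 counts (1.5 CPM) and 27 counts (1.28 CPM), against at most 2. Hoxa4 had 25 counts (1.88 CPM) and 18 counts (0.852 CPM), and its highest count elsewhere was 5, in cTKO hippocampus library 3. Hoxa2, of the arch that forms part of the middle ear and jaw support, had 11 and 19 counts. Hoxa6 had 4 counts in cTKO neocortex library 5, 1 in cTKO hippocampus library 4 and 0 in the other 18. From Hoxa7 onwards no gene of the cluster passed 3 counts in any library, and Hoxa9, Hoxa10 and Hoxa11 were at 0 in all 20.

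Hoxc was limited to its anterior genes. Hoxc4 had 18 counts (1.35 CPM) in cTKO neocortex library 5 and 11 counts (0.521 CPM) in cTKO hippocampus library 4, and Hoxc5 had 10 counts (0.752 CPM) and 16 counts (0.757 CPM), both against at most 1 in any other library. Hoxc6, which marks motor neurons of the forelimb, had 0 and 1 counts. The 6 genes from Hoxc8 to Hoxc13 had none in these libraries.

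Hoxd differed from the other clusters in that none of its 9 genes exceeded 3 counts in either library. Its largest counts were 3 for Hoxd4 in cTKO neocortex library 5 and 3 for Hoxd1 in cTKO hippocampus library 4. Hoxd1, expressed in sensory neurons, was the member seen in most of the other 18 libraries, with 24 counts over 15 of them. It had 2, 1, 0, 0 and 1 counts in control neocortex, 2, 1, 3, 2 and 0 in cTKO neocortex, 2, 2, 0, 1 and 1 in control hippocampus and 2, 2, 1, 3 and 1 in cTKO hippocampus. The only Hoxd count above 3 was 4 for Hoxd4 in cTKO hippocampus library 1. Hoxd3 and Hoxd4 share 62.8% and 52.3% of their exonic bases with each other or with neighbouring transcripts, so their counts are uncertain. Hoxd13, of the limb tips and tail, had 1 and 2 counts, and Hoxa13 had 1 in each.

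Taking all 39 members, 13 exceeded 3 counts in both libraries, and in both they were above every other library. They included Hoxa3, Hoxa5, Hoxb2 to Hoxb6, Hoxb8, Hoxc4 and Hoxc5. As a background, 892 of the 19901 genes with a count in any library met the same 2 conditions (4.48%), against 13 of the 29 Hox genes with a count (44.8%). Hoxa6 and Hoxb1 exceeded 3 counts in cTKO neocortex library 5 only. Hoxd4 exceeded it elsewhere only, and the last 23 members had at most 3 counts in all 20 libraries, 10 of them having none. The values on either side of this limit were close, with 4 counts for Hoxa6 inside it and 3 for Hoxa7, Hoxd1 and Hoxd4 outside.

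**Figure D3:**
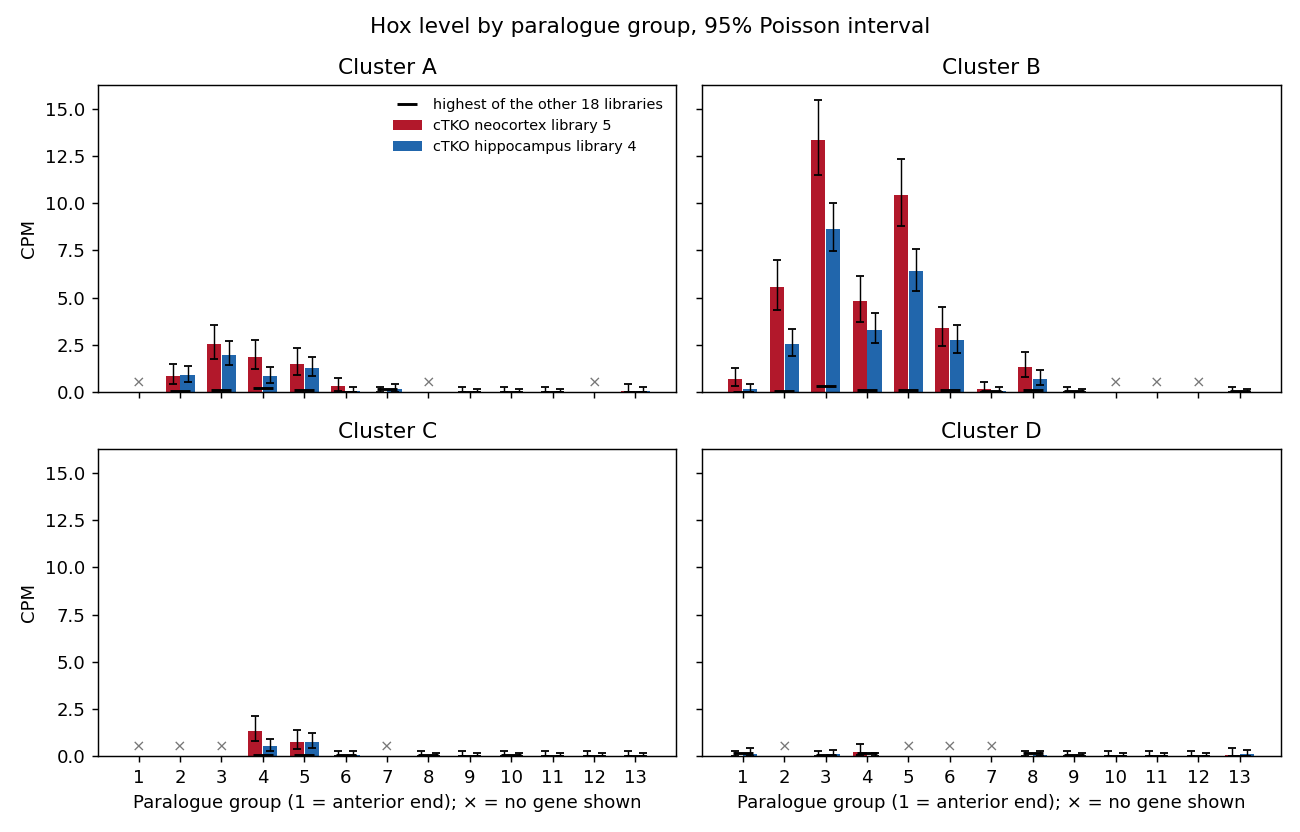
CPM of Hox genes by paralogue group (x axis) in the 4 clusters, in cTKO neocortex library 5 (red bars) and cTKO hippocampus library 4 (blue bars) with 95% Poisson intervals, a cross marking a group with no gene shown and a black dash the highest of the other 18 libraries. The levels peak at Hoxb3 (13.4 and 8.66 CPM) and Hoxb5 (10.4 and 6.39 CPM), fall to 0.150 and 0.0473 CPM at Hoxb7, and stay near 0 over Hoxd.

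The 2 libraries come from different regions, and their Hox profiles were compared gene by gene. The CPM ratio of cTKO neocortex library 5 to cTKO hippocampus library 4 was 1.59 for the summed Hox genes (exact binomial interval 1.42 to 1.77), with 671 and 672 raw counts. For the 14 members with at least 10 counts in the 2 together, the ratio ran from 0.920 for Hoxa2 to 4.76 for Hoxb1. The 95% interval of each of the 14 held the pooled ratio. Hoxb2, with the ratio 2.18 (1.51 to 3.15), lay on the side of the neocortical library, and Hoxb6, with 1.23 (0.816 to 1.85), on the other. Over the 13 members above 3 counts in both, Pearson's r of the log2 counts was 0.912 and Spearman's rho 0.867, as a description of 2 libraries whose genes share exon length and mappability.

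Other genes of the embryo were compared in the same way. Most of these genes were picked for being high in the same 2 libraries, so their ratios are a description and no test. The 3 embryonic globins had 3925 and 3943 counts and a CPM ratio of 1.58 (1.51 to 1.65). Slc4a1 and Alas2, also blood genes above the other 18 libraries in both, were left out of it. They were at 10.7 and 4.31 CPM, and at 4.66 and 2.46 CPM. The 3 limb genes above the other 18 libraries in both, Tbx4, Tbx5 and Prrx2, had 447 and 444 counts and a ratio of 1.599 (1.40 to 1.83), and the 7 such genes of a lung list, Nkx2-1, Foxf1, Gata6, Wnt2, Cldn18, Ager and Sftpb, had 641 and 680 counts and a ratio of 1.497 (1.34 to 1.67). Within these lists the ratios were spread, with ratios of 0.931 (0.736 to 1.17) for Wnt2 and 0.780 (0.478 to 1.25) for Prrx2, whose intervals lay below that of the Hox genes. Both were also present in the other 18 libraries, at 2.80 to 7.63 CPM and at 0.314 to 1.15 CPM. The 8 mitotic genes were at 1.30 (1.23 to 1.38), below the interval of the Hox genes.

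**Figure D4:**
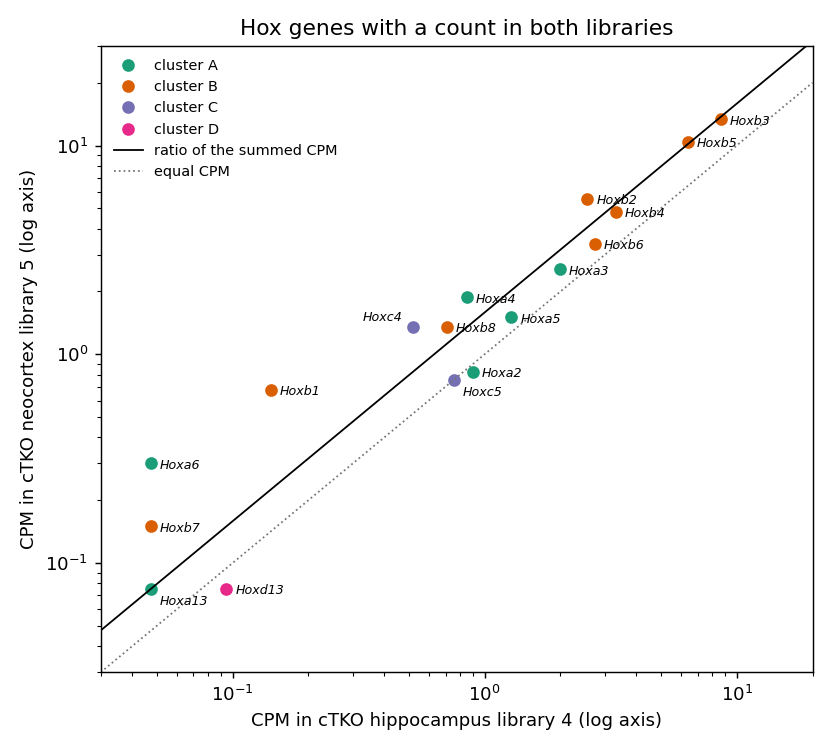
CPM of Hox genes with a count in both libraries, cTKO neocortex library 5 (y axis) against cTKO hippocampus library 4 (x axis) on log axes, coloured by cluster, with the line of the summed ratio (1.59, solid) and of equal CPM (dotted). Points scatter about the solid line over the range from 1 count to Hoxb3.

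In the other 18 libraries, 174 Hox counts were found in all. Group 3 gave 43 and group 4 gave 37, and groups 11 and 12 gave none. Besides Hoxa4 and Hoxd4, Hoxb3 was the only member above 3 counts in any of these libraries, with a maximum of 6 (0.316 CPM) in cTKO neocortex library 4 and 33 counts over 11 libraries. cTKO hippocampus library 3 had the highest sum (25 counts), from 13 members, with 5 counts each for Hoxb3 and Hoxa4. The lowest, cTKO neocortex library 2, had 2 counts. At this depth, most members could not be told from 0 in a given library.

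The comparison of genotypes asked whether loss of the APP family changed Hox genes in the adult cortex, and no member passed it. Genes with at least 10 counts over the 10 libraries of a region were tested with edgeR's quasi-likelihood test. In the neocortex, 14 of the 39 members could be tested and 0 had an FDR under 0.05 (0.270 to 0.823), against 30 of 16996 genes, or 0.177%. In the hippocampus, 13 members could be tested and 0 passed (FDR 0.231 to 0.878), against 69 of 17005 genes, or 0.406%. At an unadjusted p under 0.05 there were 8 members in the neocortex, where 10.1% of all genes reached it, and 7 in the hippocampus, where 11.6% did.

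These members entered the test through 1 library. Only Hoxb3 and Hoxd1 in the neocortex had 10 or more counts in the 9 libraries other than cTKO neocortex library 5, and only Hoxb3, Hoxb4 and Hoxd1 in the hippocampus without cTKO hippocampus library 4. Their counts and medians therefore give no support for a change. The tested members had a median log2 fold change of 4.96 in the neocortex and of 4.18 in the hippocampus, against 0.011 and 0.017 over all genes tested. It fell to a range of 1.03 to 1.28 over the 2 members left in the neocortex and to a median of 0.15 over the 3 left in the hippocampus once that library was taken out, and 0 passed in either case. Fitted values of low genes depend on the prior count, and 7 tested members in the neocortex and 3 in the hippocampus were at 0 in every control library.

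Hoxb5 had the smallest FDR of all members. By edgeR's quasi-likelihood test, its log2 fold change of 6.06 in the neocortex had a standard error of 1.86 and an FDR of 0.270, and that of 6.46 in the hippocampus had a standard error of 1.97 and an FDR of 0.231, and it was higher in cTKO through the 1 library in each region. Under edgeR's likelihood ratio test it was the only member with an FDR under 0.05, at 0.0346 in the neocortex, where 0.988% of genes passed, and at 0.0324 in the hippocampus, where 1.55% passed. edgeR's exact test gave 0.0700 and 0.0652, and DESeq2 gave no adjusted p for any tested member. By the quasi-likelihood test of edgeR, the log2 fold changes of Hoxb3 were 5.57 ± 1.77 (SE, FDR 0.291) and 4.18 ± 1.53 (SE, FDR 0.314). Those of Hoxd1, which did not stand out in the 2 libraries, were 0.81 ± 0.87 (SE, FDR 0.823) and 0.43 ± 0.71 (SE, FDR 0.878).

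The partners, inducers and repressors of Hox genes were described next. None of their members was called in either region, 9 of 9 partners, 7 and 6 of 12 inducers, and 19 of 19 Polycomb and Trithorax genes being tested. Their median log2 fold changes in the neocortex and the hippocampus were 0.03 and -0.08 for partners, 0.09 and -0.03 for inducers and 0.015 and 0.014 for the chromatin regulators, beside 0.011 and 0.017 over all genes. Among the partners that bind DNA with Hox proteins, Meis1 was at 19.3 CPM (257 counts) in cTKO neocortex library 5 and 12.5 CPM (264 counts) in cTKO hippocampus library 4, against 0.959 to 5.36 CPM in the other 18. Pknox1 was slightly above the others at 15.5 CPM in each, against 9.75 to 14.9 CPM. Meis2 was at 190 CPM in cTKO neocortex library 5 and 52.8 CPM in cTKO hippocampus library 4, against 43.4 to 193 CPM elsewhere.

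The inducers ranged from 0 to levels that every library shared. Cdx2 and Cdx4, which start the trunk Hox code, had 0 counts in all 20 libraries, Cdx1 and Wnt3a had 1 and 0 counts in the 2 libraries, and Fgf8 had none. Aldh1a2, the enzyme that makes retinoic acid, was at 18.8 and 16.4 CPM, within the 3.41 to 31.8 CPM of the others. The retinoic acid receptors Rara (20.8 and 23.9 CPM), Rarb (16.6 and 7.05 CPM) and Rarg (16.4 and 15.2 CPM) and the signal Gdf11 (9.62 and 12.7 CPM) were at similar levels, and none was above the others in both libraries. Of the chromatin regulators, Ezh2, the catalytic subunit of the Polycomb complex in dividing cells, was at 15.3 and 12.2 CPM against 2.57 to 6.0 CPM, and Cbx2 at 15.9 and 11 CPM against 2.46 to 5.06 CPM. Suz12 was at 48.6 and 48.9 CPM against 33.0 to 48.2 CPM. Ezh1, the subunit of cells that do not divide, was at 72.8 and 74.5 CPM, inside the 66.7 to 110 CPM of the others.

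Around the clusters, a minority of the transcripts that lie among or beside the Hox genes appeared with them. Of 16 such transcripts in the files, 11 had 0 counts in both libraries. Hoxb5os (4 and 8 counts), Hoxaas2 (5 and 6) and Evx1 (7 and 5), the homeobox gene beside Hoxa13, had more than 3 counts in both and were above every other library. That is what above the others in both means for the lists that follow. Hotairm1, with 7 and 3 counts against at most 2, was above every other library without passing 3 counts in the second. Hotair and Hottip, long RNAs of the posterior ends of Hoxc and Hoxa, had 0 in all 20 libraries. Evx2, beside Hoxd13, had 1 count, in cTKO hippocampus library 4. Hairpins of the Mir10 and Mir196 families, which lie in the clusters, had none in any library, in RNA enriched for poly-A tails. The 19 flanking genes in the files summed to 1222 and 1270 CPM, within the 1095 to 1284 CPM of the others, and 1 of them, Cbx1, was above the range in both at 24.95 and 23.0 CPM against 16.9 to 22.6 CPM.

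Gene lists for levels of the axis and for tissues were set beside the Hox genes. No member of any of the 26 lists passed the test in either region. Forebrain identity genes summed to 797 and 754 CPM in the 2 libraries, within the 672 to 927 CPM of the others. Excitatory neuron genes summed to 14918 CPM in cTKO neocortex library 5, within the others, and to 13471 CPM in cTKO hippocampus library 4, under their lowest of 14108 CPM. Midbrain and isthmus genes summed to 0.977 and 2.93 CPM, against 1.15 to 17.6 CPM, with En1 at 0 and 1 counts and Pax5 and Wnt1 at 0 in both.

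Markers of the neural tube at the levels of the Hox genes were scarce. In a list of 15 genes of the hindbrain and spinal cord, Lbx1, Olig3, Tlx3 and Mnx1, defining genes of dorsal horn, hindbrain and motor neurons, had 0 in both libraries, and 9 of the list had at most 3 counts in both. Transmitter genes of adult brainstem neurons summed to 5.04 and 4.54 CPM, against 2.95 to 9.40 CPM, and none was above the others in both. Somite genes summed to 5.49 and 4.02 CPM, against 3.04 to 6.79 CPM, with Meox2 alone above the others, at 10 and 12 counts, and Msgn1 and Pax9 at 0.

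Genes of the limb, lung and blood of the embryo were high in the same 2 libraries. Tbx5, of the forelimb, heart and lung, had 204 and 203 counts (15.3 and 9.61 CPM) against at most 0.157 CPM elsewhere. Tbx4, of the hindlimb and lung, had 215 and 184 counts (16.2 and 8.71 CPM) against at most 0.740 CPM, while Pitx1, the other defining gene of the hindlimb, had 1 and 2 counts. In a list of lung genes, 7 of 15 were above the others in both libraries, among them Nkx2-1 (139 and 122 counts), Foxf1 (217 and 217), Gata6 (92 and 82), Cldn18 (32 and 29), Ager (32 and 22) and Sftpb (10 and 5), the last 2 being genes of alveolar cells. Of other genes of mature airway and alveolar cells, Scgb1a1 and Sftpd were at 0 in both, and Sftpc had 7 and 18 counts (0.526 and 0.852 CPM), within the 0.316 to 1.37 CPM of the others. Etv5 and Id2, with the most counts of this list, were at 112 and 97.0 CPM in cTKO neocortex library 5 and 49.5 and 73.5 CPM in cTKO hippocampus library 4, within the range of the others.

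The embryonic globin Hbb-y had 2600 and 2528 counts (195 and 120 CPM) against 0.174 to 0.812 CPM elsewhere. Epor, of the same blood list, was not raised, at 4.96 and 3.17 CPM against 3.29 to 8.69 CPM. All 8 mitotic genes were above the others in both libraries, Top2a being at 58.7 and 44.9 CPM against 1.25 to 3.06 CPM and Mki67 at 36.9 and 30.6 CPM against 1.46 to 5.16 CPM. Gata4, of heart and foregut, had 43 and 47 counts, while Nkx2-5 and Hand1, which define heart muscle, had 0. Cartilage genes included Col2a1 at 15.3 and 10.1 CPM against 0.123 to 1.56 CPM, and Matn1 and Matn3 at no more than 2 counts. In the kidney list, Wt1 and Wnt11 were above the others in both (34 and 28, and 45 and 59 counts), and Umod, of mature tubules, had 0 and 2. The kidney list summed to 39.5 and 47.1 CPM, where the highest other library of the same region had 32.0 and 40.0 CPM. For cartilage the sums were 97.8 and 104.1 CPM, against 85.1 and 103.1 CPM. The part of these genes and of the tissues they mark in the Hox levels was not tested.

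**Figure D5:**
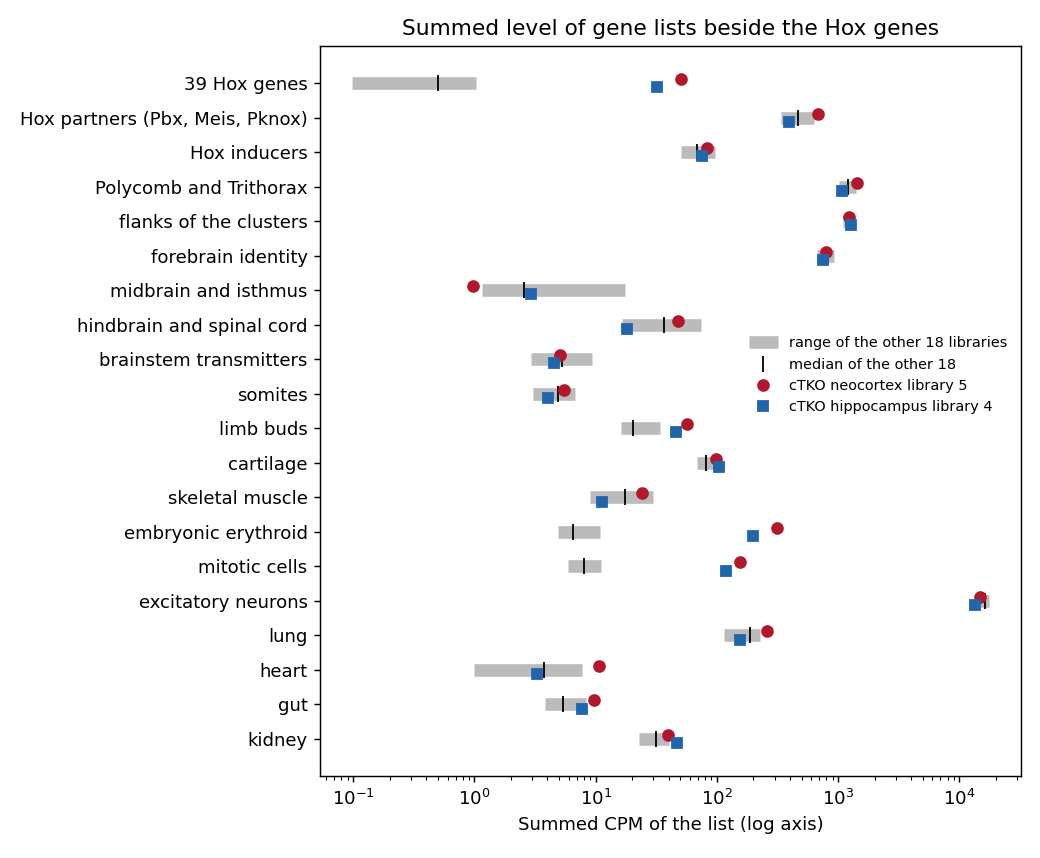
Summed CPM of the Hox genes and of 19 gene lists on a log axis, in cTKO neocortex library 5 (red circles) and cTKO hippocampus library 4 (blue squares), with the range (grey bar) and median (black tick) of the other 18 libraries. The Hox genes, embryonic erythroid, mitotic and limb bud lists lie above the grey bars in both libraries, and the flanks of the clusters and forebrain identity lie within them.

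The remaining lists are given beside the range of the other libraries, which pools both regions. Fetal liver genes summed to 7.74 CPM in cTKO neocortex library 5 and 140 CPM in cTKO hippocampus library 4, of which 6.39 and 139 CPM were Ttr, a gene of the choroid plexus as well, and Alb had 1 and 0 counts. Choroid plexus genes summed to 15.4 and 190 CPM, against 9.49 to 2734 CPM. Skeletal muscle genes summed to 24.1 and 11.3 CPM, against 8.96 to 29.9 CPM, with Actc1 above the others at 12 and 17 counts. Leukocyte genes summed to 147 and 144 CPM, against 90.8 to 206 CPM, with Ptprc at 5.86 and 5.92 CPM against 2.25 to 5.49 CPM. Heart genes summed to 10.6 and 3.31 CPM against 0.988 to 7.77 CPM, and gut genes to 9.62 and 7.67 CPM against 3.79 to 8.31 CPM. In each of the 2 libraries, the sums of both lists were above those of all other libraries of the same region. The highest of the others was 7.77 CPM in the neocortex and 1.87 CPM in the hippocampus for heart genes. For gut genes it was 8.31 and 5.91 CPM. Single genes carried much of these sums. Foxf2 was at 8.42 and 6.96 CPM, Cdx2, Fabp1, Fabp2 and Nkx2-3 had 0 counts, and no gut gene was above the others in both. Of the heart genes, only Gata4 was, at 3.23 and 2.22 CPM. Tnnt2, at 7.14 and 0.663 CPM, lay within the range of the others. Thymus and pharynx genes summed to 6.46 and 9.04 CPM against 4.82 to 9.45 CPM. Skin genes summed to 14.7 and 17.9 CPM against 12.3 to 26.6 CPM, the other hippocampal libraries being at 21.2 CPM or more. Placental genes summed to 76.7 and 40.1 CPM against 25.9 to 81.3 CPM, with Tpbpa, Prl3d1 and Gcm1, markers of trophoblast, at 0 in both.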

How the data were processed

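RNA of the neocortex and hippocampus of 5 cTKO and 5 control mice of 3 months was enriched for poly-A tails and sequenced as single-end reads of 100 bp. The authors mapped reads to mm10 with STAR 2.5.4a, per the labels, obtained counts per gene with HTSeq and deposited these raw counts per gene symbol, without normalization. The annotation and strand setting of the counting are not given in the sources used here, nor whether same-numbered libraries share a mouse.

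The members and lists were chosen with earlier results of these data known. CPM were computed from the deposited counts with TMM library sizes, and a count of 3 was taken as the floor. Intervals are exact Poisson or binomial, at 95%. Positions, exon lengths and overlaps are from GENCODE vM21, and promoter windows from RefSeq GRCm38.p6, which held 22 of the 39 genes.

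In each region, genes with at least 10 counts over its 10 libraries were tested with edgeR 4.0.16 in R 4.3.3 (glmQLFit and glmQLFTest, TMM, Benjamini-Hochberg adjustment, threshold 0.05). Samples were grouped by genotype and region, and p-values measure the spread between these libraries. Alternatives were DESeq2's size factors, no filter, CPM above 1 in at least 5 libraries, filterByExpr, edgeR's exact and likelihood ratio tests, DESeq2 1.42.0, a robust fit, a block of library number, all 20 libraries in a joint fit, each library left out, CPM without TMM, and other count limits. The procedures were tested on simulated data. Replicates of a group differed by more than sampling noise (chi-square per degree of freedom 3.70 to 44.0).

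Values were named by a rule: in both libraries, the members with the most counts in each cluster and the ends of each cluster's range, members above 3 counts elsewhere, those with the smallest adjusted p, and in lists the members with the most counts and defining markers at 0. Other list genes were chosen once their values had been seen, for lying above the other 18 libraries. There were 19 lists, and 7 more, of lung, heart, gut, kidney, thymus and pharynx, skin and placenta, were written after the Hox values had been seen. The results of some genes are not reported here. Python 3.11.15, pandas 2.3.3, scipy 1.17.1 and matplotlib 3.10.9 were used.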

Additional observations from a re-analysis of the deposited data

Results flagged for a closer look

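In groups of 5 libraries, a library was singled out where its gap to the next exceeded 0.71 of the range of the group. For normally distributed values, this happens in about 1 of 20 groups. Only groups with a library above 3 counts were examined, so that rate does not hold for these low counts. The 2 libraries were named for their Hox levels, so the flags describe them and are no test. Apart from Hoxd4, all that was singled out lay in cTKO neocortex library 5 or cTKO hippocampus library 4. The summed Hox level was 50.4 CPM in the former and 31.8 CPM in the latter, Hoxa 8.27 and 5.54 CPM, Hoxb 39.8 and 24.6 CPM, and Hoxc 2.10 and 1.33 CPM, and Hoxd was not among them.

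Of single genes in cTKO neocortex library 5 and cTKO hippocampus library 4, Hoxa2 was at 0.827 and 0.899 CPM, Hoxa3 at 2.56 and 1.99 CPM, Hoxa4 at 1.88 and 0.852 CPM, and Hoxa5 at 1.5 and 1.28 CPM. Hoxb2 was at 5.56 and 2.56 CPM, Hoxb3 at 13.4 and 8.66 CPM, Hoxb4 at 4.81 and 3.31 CPM, Hoxb5 at 10.4 and 6.39 CPM, Hoxb6 at 3.38 and 2.74 CPM, and Hoxb8 at 1.35 and 0.71 CPM. Hoxc4 was at 1.35 and 0.521 CPM and Hoxc5 at 0.752 and 0.757 CPM. Hoxa6, at 0.301 CPM, and Hoxb1, at 0.676 CPM, stood apart above this count limit in cTKO neocortex library 5 alone. Hoxd4 stood apart in cTKO hippocampus library 1, at 0.164 CPM, which is 4 counts.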

How the results depend on the processing

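For members of the main fit, all 436 fitted values under the alternatives kept their direction. Most of these members owe their sign to the 1 high library, so the shared direction gives no support. Without the filter, 21 of 24 members in the neocortex and 23 of 28 in the hippocampus had a positive fold change. Hoxb5 under edgeR's likelihood ratio test was the only 1 to pass the threshold in each region. Its FDR over the alternatives ran from 0.0346 to 0.491 in the neocortex and from 0.0324 to 0.433 in the hippocampus. That test called 1 member in each region in place of 0. No member was left to test by the filter on CPM above 1 in at least 5 libraries or by filterByExpr, which remove genes seen in 1 library, and DESeq2 gave no adjusted p to any tested member. The Hox genes called stayed at 0 with each library left out.

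Over all genes, the 30 called in the neocortex and 69 in the hippocampus became 168 and 263 with edgeR's likelihood ratio test, 153 and 246 with the exact test, 231 and 333 with DESeq2, and 18 and 185 with 1 fit of all 20 libraries. With each library left out, they ran from 7 to 141 and from 17 to 130. In the neocortex the removal of any of the 10 libraries moved the count by over 1.5 times, with 118 calls without cTKO neocortex library 3 and 141 without library 5, and in the hippocampus that of 7 did, with 130 without cTKO hippocampus library 5. The cause was not tested. With the library number as a block, 29 and 62 genes and 0 members were called. Same-numbered libraries of the 2 genotypes deviated together with r from -0.007 to 0.225 in the neocortex and from -0.133 to 0.140 in the hippocampus, 4 and 1 of the 5 control libraries correlating best with their own number, so the numbers were not taken as pairs.

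Without TMM, the summed Hox level was 52.3 CPM in cTKO neocortex library 5, 33.3 CPM in cTKO hippocampus library 4 and at most 0.987 CPM elsewhere. With a limit of 0 counts in place of 3, cTKO hippocampus library 4 held 23 members in place of 13, cTKO neocortex library 5 held 19 in place of 15, and the other libraries up to 13 in place of 2. With a limit of 10 counts, they held 12, 12 and 0. Depth limits what can be said of the other 18 libraries, where 3 counts correspond to at most 0.248 CPM.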

Other observations

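The deviations of the libraries from their group means were compared between the regions over 14188 genes. Among controls, same-numbered hippocampal and neocortical libraries had r from 0.133 to 0.339, each of the 5 correlating best with its own number. Among cTKO libraries, numbers 1 to 3 had r from 0.320 to 0.395, number 4 had -0.056 and number 5 had -0.070. cTKO hippocampus library 4 and cTKO neocortex library 5 had r = 0.575, the highest of the 25 cTKO values, and differently numbered cTKO libraries other than these had r from -0.397 to 0.153. These values rest on genes that include those that stood apart in the 2 libraries, and whether the 2 came from the same mouse cannot be told from the labels.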
